A study of Mus musculus with 5 samples.

Results

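The genes described here encode the enzymes that make purine and pyrimidine nucleotides from small precursors and those that recover them from free bases and nucleosides. They were chosen by name as 33 gene symbols, and each gene was represented by its brightest probe set among those the platform annotation assigns to that symbol alone. Of the 33 genes, 28 had such a probe set, out of 12393 genes on the array, and all 28 passed the filter on dim genes, which left 7436 genes tested. The other 5, Pfas, Atic, Gmps, Impdh2 and Dctd, were not analysed here. The genes were sorted by step into folate-dependent steps, supply of phosphoribosyl pyrophosphate (PRPP), other de novo purine steps, de novo pyrimidine steps, deoxynucleotide supply with nucleotide kinases, and salvage.

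RNA came from whole C57BL6J mouse embryos at gestation day 9.5, with 3 arrays of Folr1+/+ embryos and 2 arrays of Folr1-/- embryos, all on the Affymetrix Mouse Genome 430A array. Folr1 encodes a cell-surface folate receptor, and the study asks which transcripts differ in embryos that lack it. Per the labels, the Folr1-/- embryos were bred from heterozygous parents, and the dams were given a folate-supplemented chow from 2 weeks ahead of mating onwards. Decidua, chorion and amnion were removed, and genotypes were called by PCR. Nothing separate is said of the chow of Folr1+/+ dams, and if theirs was another one its share in a difference and that of the genotype cannot be told apart. The number of embryos in an array's RNA is not stated either, and p-values measure only the spread between these 5 arrays.

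A purine ring is assembled on PRPP, and folate in its formyl form donates carbons to it at a pair of steps, catalysed by the enzymes that Gart and Atic encode. The pyrimidine ring is closed before it is joined to PRPP and needs no folate, but folate is needed again when thymidylate synthase methylates deoxyuridylate to make thymidylate for DNA. Salvage enzymes bypass the ring steps by joining a free base to PRPP or by phosphorylating a nucleoside. Embryos at this stage divide rapidly and use the products for RNA and DNA.

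Across the array, 1114 of 7436 genes (15.0%) passed limma's adjusted p threshold of 0.05, with 609 (8.19%) at higher and 505 (6.79%) at lower signal in arrays labelled Folr1-/- than in those labelled Folr1+/+. Higher genes made up 54.7% of these calls, and 69.3% (769 against 341) once each array was centred on its median. Leaving out Folr1+/+ replicate 3 gave 636 calls, leaving out Folr1-/- replicate 1 gave 369, and leaving out Folr1-/- replicate 2 gave 664. The Folr1 probe set did not separate the groups (40.2 to 57.0 against 41.8 to 50.2), and it does not check the labels, since they do not say which part of the gene was deleted. Marker lists differed widely. Visceral endoderm and yolk sac genes were higher in 11 of 11 cases. Their summed signal was 2423 to 3421 in Folr1+/+ arrays and 17121 to 17326 in Folr1-/- arrays. Genes of a trophoblast and decidua list were higher in 2 of 2 tested (summed signal 124 to 160.4 against 336 to 437). The 2 were Plac1 and Prl8a2, and Prl8a2 was uneven between the Folr1-/- arrays (143 and 34.6). Tpbpa, Prl8a8 and Psg16 were too dim to test. Primitive erythroid genes were lower in 6 of 7 (5333 to 6291 against 166 to 584), neural progenitor genes in 6 of 7 (1056 to 1142 against 284 to 326), somite genes in 4 of 4 (544 to 704 against 161 to 226) and cardiac genes in 5 of 6 (5829 to 6526 against 3541 to 3917). Xist was 29.4, 35.7 and 25.0 against 419 and 770.4, and the Y-linked Eif2s3y was 300.3, 345 and 372 against 104 and 3.13. Kdm5d, also Y-linked, was 120, 89.5 and 107 against 25.2 and 0.796. Folr1-/- replicate 1 thus had signal of both Xist and Y-linked genes. Signal of these sex-linked genes differed between the groups, and the source of the mixed signal in Folr1-/- replicate 1 was not tested. The share of sex in any difference cannot be told apart from that of the genotype. In whole embryos, a change in the cells of a type and one in RNA per cell cannot be told apart. The yolk sac is not among the removed tissues listed above. Its share in the RNA of each group cannot be told apart from these either. The part of the marker and sex-linked differences in the values of the nucleotide genes was not tested.

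Few nucleotide genes passed the test. Ctps and Uck2 fell and 0 genes rose among the 28 tested, which is 7.14% called where 15.0% of all tested genes were. Taken by direction, 7.14% were lower, near the 6.79% of all tested genes, and 0 were higher, where 8.19% of all tested genes were. At an unadjusted limma p under 0.05 there were 4 higher and 5 lower, or 32.1%, where 30.0% of all tested genes reached it. The median log2 fold change, taken as Folr1-/- minus Folr1+/+ on the log2(signal + 16) scale, was -0.032, and over all tested genes it was -0.020. The median size of the change was 0.16 for these genes and 0.26 for all tested genes. Their median SE was also smaller, at 0.17 against 0.19 for all tested genes. None of the 28 changed by 1 log2 unit or more, which 4.65% of all tested genes did. The 95% confidence interval lay within 1 log2 unit of 0 on each side for 26 of the 28 genes (92.9%), the exceptions being Dhodh and Uck2, and for 82.5% of all tested genes. The groups did not overlap in 12 of the 28 (42.9%), against 46.7% of all tested genes. In mean signal the 28 genes ran from percentile 41.2 (Tk2) to percentile 99.59 (Nme2) of all genes on the array.

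**Figure D1:**
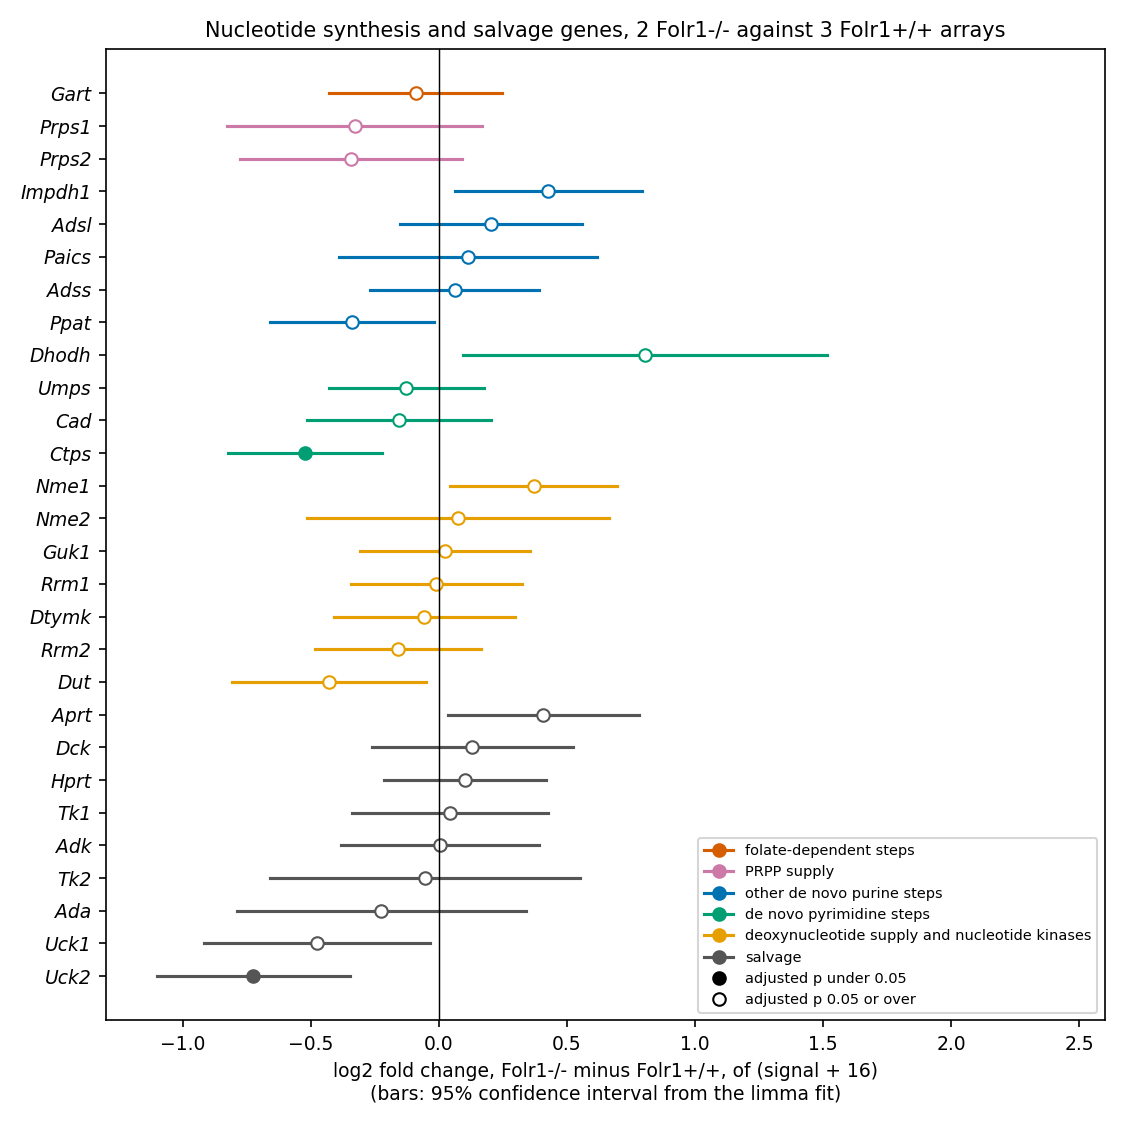
Log2 fold change of each of the 28 nucleotide genes, Folr1-/- minus Folr1+/+ (2 against 3 arrays), with the 95% confidence interval of the limma fit as a bar, coloured by step. Filled points passed the adjusted p threshold: Ctps at -0.52 and Uck2 at -0.72, while the bars of 19 of the 28 genes cross 0.

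The folate-dependent steps of purine synthesis were represented by Gart alone of the 2 listed genes. Gart encodes a trifunctional enzyme, and one of its activities is the transfer of a formyl group from folate to the growing purine ring. Its signals were 1573, 1625 and 1367 over the 3 Folr1+/+ arrays and 1602 and 1266 over the 2 Folr1-/- arrays, so that the groups overlapped and Folr1-/- replicate 1 lay among the Folr1+/+ arrays. The log2 fold change was -0.091 ± 0.15 (SE), with an adjusted p of 0.74 and a 95% confidence interval of -0.43 to 0.25. Without Folr1-/- replicate 2 the sign turned, to 0.078, and with each array centred on its median the change was 0.00061. Its other probe sets were dimmer and split, with log2 differences of -0.43 (138, 134 and 107 against 66.2 and 119) and 0.12 (308, 346 and 284 against 319 and 363).

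The promoter of Gart is shown as the start of the only folate-dependent gene measured. It is a window of 300 bases from RefSeq (build GRCm38.p6), from 250 bases before the annotated start to 50 after it, written 5′ to 3′ on the gene's strand. Capitals mark a CCAAT box, here 33 bases before the start.
Gart (chr16:91646923-91647222, strand -): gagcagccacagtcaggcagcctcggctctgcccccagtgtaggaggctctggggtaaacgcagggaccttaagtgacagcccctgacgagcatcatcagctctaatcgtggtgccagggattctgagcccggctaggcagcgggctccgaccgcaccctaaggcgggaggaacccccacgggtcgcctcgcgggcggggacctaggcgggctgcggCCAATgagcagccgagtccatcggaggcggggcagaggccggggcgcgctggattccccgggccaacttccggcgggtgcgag

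PRPP, the sugar phosphate used by synthesis and salvage alike, is made by the synthetases that Prps1 and Prps2 encode. Both genes had negative fold changes that did not pass, -0.33 ± 0.23 for Prps1 and -0.34 ± 0.20 for Prps2 (adjusted p 0.36 and 0.27). Single arrays moved these values. Prps1 was at -0.12 without Folr1+/+ replicate 2 and at -0.56 without Folr1+/+ replicate 3. Prps2 was at -0.55 without Folr1-/- replicate 1 and at -0.14 without Folr1-/- replicate 2. The median of the pair, -0.34, became -0.19 without Folr1+/+ replicate 2. Prps1 signals were 220.2, 289 and 149 against 167 and 164, with the Folr1-/- arrays inside the wide Folr1+/+ range. Prps2 signals were 86.3, 109 and 91.2 against 85.1 and 59.7, and here the groups did not overlap, though only narrowly. Both genes are X-linked, as is the salvage gene Hprt. Xist differed between the same arrays, and sex cannot be told apart from genotype here. A further probe set that the annotation assigns to Prps1 and Prps1l3 together was left out.

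Among the other steps of purine synthesis 5 of 8 genes were measured and none passed limma's threshold, with 1 higher and 1 lower at an unadjusted p under 0.05 and a class median of 0.11. Ppat encodes the amidotransferase that commits PRPP to purine synthesis. Its signals were 749, 763 and 787 over the 3 Folr1+/+ arrays and 662 and 547 over the 2 Folr1-/- arrays, all Folr1-/- values below all Folr1+/+ values, with a fold change of -0.34 ± 0.15 (adjusted p = 0.15). Its other, dimmer probe set went the opposite way and also separated the groups (126, 94.9 and 114 against 159 and 143, log2 difference 0.39). With the mean of both probe sets the change was 0.025.

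Impdh1 encodes one form of the dehydrogenase that diverts inosinate towards guanine nucleotides. Its signals were 135, 149 and 127 over the 3 Folr1+/+ arrays and 177 and 202 over the 2 Folr1-/- arrays, higher in both Folr1-/- arrays, and the fold change of 0.43 ± 0.17 did not pass (adjusted p = 0.11). Adsl, whose lyase acts in both ring synthesis and the branch to adenylate, was 200.4, 174 and 172 against 223 and 201, with a change of 0.20 ± 0.16 and both Folr1-/- arrays above the Folr1+/+ range, 1 of them barely. Adss, which takes inosinate towards adenylate, was at 0.062 ± 0.15 and its groups overlapped. Paics, which encodes a bifunctional enzyme midway along the pathway, was at 0.11 ± 0.23, with Folr1-/- signals of 2349.8 and 4268 on either side of the Folr1+/+ range of 2590.5 to 3627. Its 3 probe sets had log2 differences from -0.23 to 0.11. The purine genes of this class thus had a median of 0.11, with 4 of the 5 fold changes positive. The Impdh1 and Ppat values stood apart from each other in opposite directions without either passing.

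Ppat and Paics lie on opposite strands of chromosome 5, with annotated start sites 276 bases apart. Each is transcribed towards the annotated start of the other, so that their 5′ ends overlap. Both windows are shown because these neighbours act in the same pathway and their brightest probe sets had fold changes of opposite sign. Neither change passed, and with the mean of probe sets the signs swapped (0.025 for Ppat and -0.035 for Paics). Capitals mark an E-box 203 bases and a CCAAT box 23 bases before the Paics start. The Ppat window held none of the 3 motifs searched, which says only that these letters are not in it.
Paics (chr5:76951052-76951351, strand +): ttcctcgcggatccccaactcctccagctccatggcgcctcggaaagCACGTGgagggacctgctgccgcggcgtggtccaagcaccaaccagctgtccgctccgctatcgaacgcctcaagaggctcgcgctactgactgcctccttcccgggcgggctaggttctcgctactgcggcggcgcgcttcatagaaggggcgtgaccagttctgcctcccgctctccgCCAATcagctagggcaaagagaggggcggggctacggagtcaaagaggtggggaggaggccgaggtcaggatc
Ppat (chr5:76951529-76951828, strand -): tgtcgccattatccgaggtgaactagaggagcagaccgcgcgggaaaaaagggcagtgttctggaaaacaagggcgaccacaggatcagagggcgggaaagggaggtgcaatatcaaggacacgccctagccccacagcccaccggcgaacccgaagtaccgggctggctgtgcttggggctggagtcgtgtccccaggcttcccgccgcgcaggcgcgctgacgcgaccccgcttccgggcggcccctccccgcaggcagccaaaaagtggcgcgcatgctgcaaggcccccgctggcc

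All 4 genes of de novo pyrimidine synthesis were measured, and 1 of them, Ctps, fell. Ctps encodes the synthetase that turns UTP into CTP, the last step of the pathway. Its signals were 1721, 1889.8 and 1860.1 over the 3 Folr1+/+ arrays and 1326 and 1200.2 over the 2 Folr1-/- arrays, so that every Folr1-/- array lay below every Folr1+/+ array. The group means were 1824 ± 90.0 (SD, n = 3) and 1263 ± 89.0 (SD, n = 2). The log2 fold change was -0.52 ± 0.14, with an adjusted p of 0.024 and a 95% confidence interval of -0.83 to -0.22. The direction held at all 16 alternative settings and the call at 10 of them (adjusted p 0.015 to 0.14). When single arrays were left out it was lost in 3 cases: at -0.51 and an adjusted p of 0.089 without Folr1+/+ replicate 3, at -0.60 and 0.083 without Folr1-/- replicate 1, and at -0.45 and 0.14 without Folr1-/- replicate 2. Other settings that ended it included no filter (0.0503) and no intensity trend (0.053).

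RefSeq gives Ctps start sites 817 bases apart on chromosome 4. The window of the upstream one is shown because Ctps is the only de novo gene that passed, and it holds no motif searched.
Ctps (chr4:120570227-120570526, strand -): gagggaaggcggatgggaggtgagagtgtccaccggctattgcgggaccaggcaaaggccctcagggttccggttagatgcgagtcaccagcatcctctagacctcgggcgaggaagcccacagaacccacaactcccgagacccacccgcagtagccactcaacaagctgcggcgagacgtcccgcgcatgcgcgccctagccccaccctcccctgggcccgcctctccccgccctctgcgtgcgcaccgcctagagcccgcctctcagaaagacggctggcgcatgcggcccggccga

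The other pyrimidine genes did not pass. Cad, whose large protein carries the opening activities of the pathway, was at -0.16 ± 0.16 with overlapping groups (659, 496 and 603 against 483 and 560.4). Umps, whose enzyme completes uridylate, was 702, 676 and 719 against 646 and 631, a small difference of -0.13 ± 0.14 in which the groups did not overlap. Dhodh encodes the mitochondrial dehydrogenase that oxidises dihydroorotate to orotate, and its signals were 127, 42.7 and 125 over the 3 Folr1+/+ arrays and 158 and 182 over the 2 Folr1-/- arrays. Both Folr1-/- arrays were above all Folr1+/+ arrays, but Folr1+/+ replicate 2 stood far below the other 2 of its group. The fold change of 0.81 ± 0.33 did not pass (adjusted p = 0.12), and it was 0.38 without Folr1+/+ replicate 2. The class median of these 4 genes was -0.14.

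**Figure D2:**
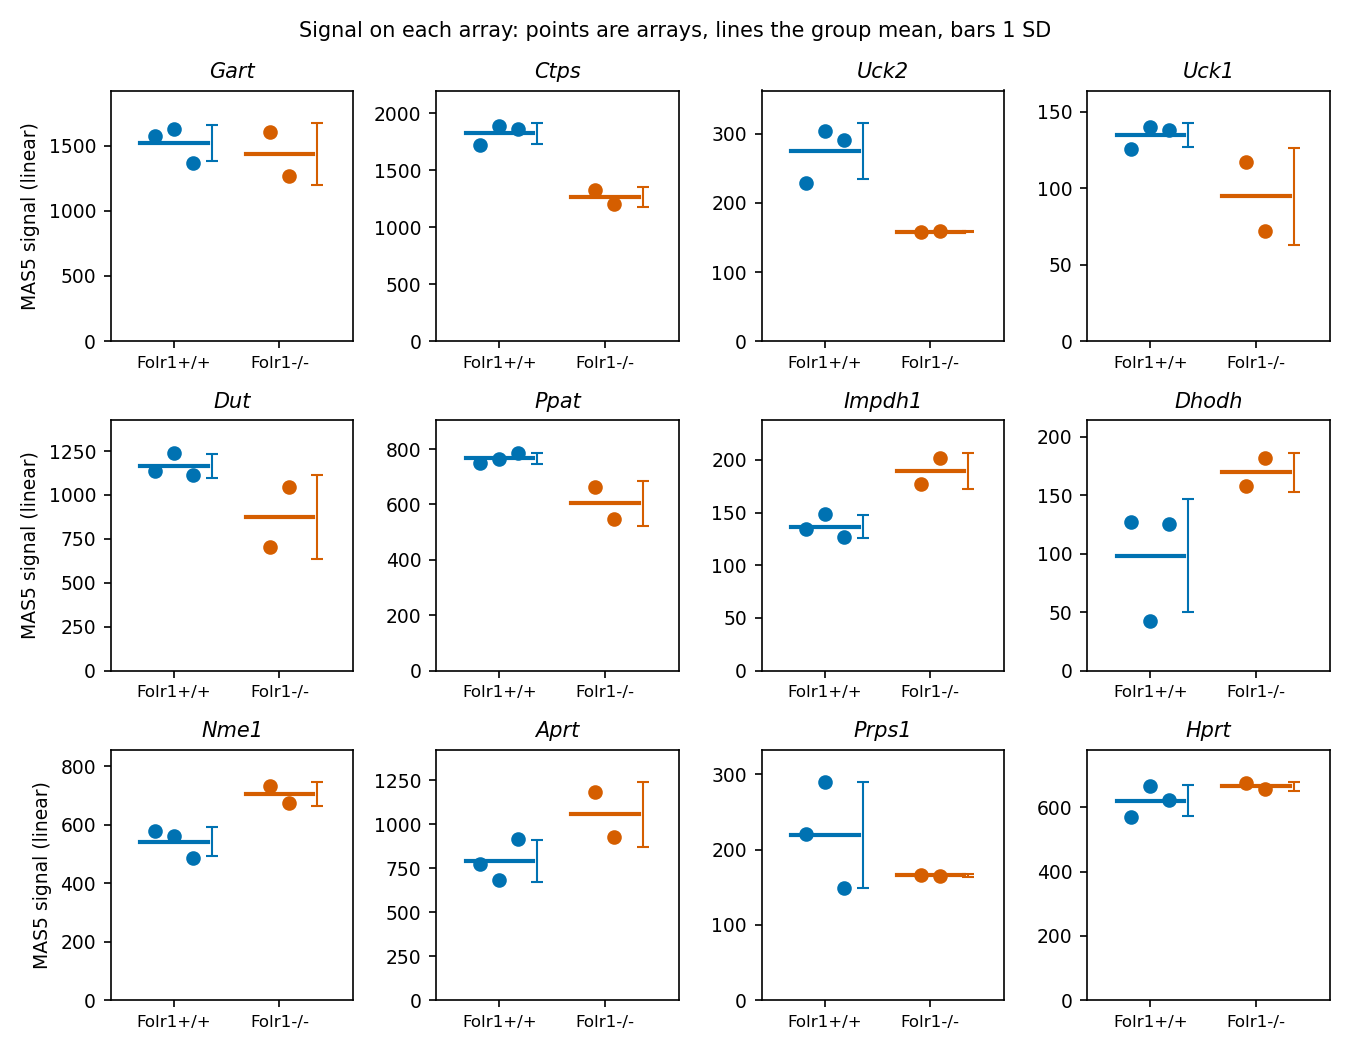
MAS5 signal on a linear axis from 0 on each of the 5 arrays for 12 nucleotide genes, with the group mean as a line and 1 SD as a bar. Ctps and Uck2 are lower in both Folr1-/- arrays, Gart, Prps1 and Hprt overlap, and 1 low Folr1+/+ array sets the spread of Dhodh.

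Deoxynucleotides for DNA come from ribonucleotide reductase, whose subunits Rrm1 and Rrm2 encode. Among the 7 measured genes of this class none passed limma's threshold, with 1 higher and 1 lower at an unadjusted p under 0.05 and a median of -0.011. Rrm1 was 1799, 1741 and 1388 against 1657 and 1583 and Rrm2 was 2709.7, 2203 and 2613 against 2089.8 and 2387, with fold changes of -0.011 ± 0.15 and -0.16 ± 0.15 and overlapping groups in each. The intervals were -0.34 to 0.32 for Rrm1 and -0.48 to 0.16 for Rrm2. Dtymk, the kinase that phosphorylates thymidylate, was at -0.058 ± 0.16, and Guk1, the kinase of guanylate, at 0.022 ± 0.15.

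Dut encodes the enzyme that hydrolyses dUTP, keeping uracil out of DNA and yielding the substrate of thymidylate synthase. Its signals were 1137, 1241 and 1116 over the 3 Folr1+/+ arrays and 706 and 1045 over the 2 Folr1-/- arrays, with both Folr1-/- arrays below the Folr1+/+ arrays but far from each other. The fold change of -0.43 ± 0.17 did not pass (adjusted p = 0.12). It passed without Folr1-/- replicate 2 (-0.71, adjusted p = 0.035), and without Folr1-/- replicate 1 it was -0.15 (range of adjusted p over the settings 0.035 to 0.68). Its dim second probe set differed in the same direction, by -0.55.

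Nme1 and Nme2 encode closely related nucleoside diphosphate kinases and are neighbours on chromosome 11. Nme1 was 578, 563 and 486 against 733 and 675, higher in both Folr1-/- arrays, with a fold change of 0.37 ± 0.15 that did not pass (adjusted p = 0.12). A second Nme1 probe set, of the kind that can share probes with related transcripts, gave -0.042. Nme2 had the widest spread of this class (6602, 3768 and 4648 against 3671 and 7161), with an interval of -0.52 to 0.66. Because the copies are so alike, the level assigned to each is uncertain. The same limit holds for the probe sets used for Ppat, Cad, Aprt, Rrm2 and Adk, whose names carry the suffixes s or x that the manufacturer gives to sets matching several transcripts.

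Among 30 tested genes of DNA replication and S phase, read beside the deoxynucleotide genes, 0 rose and 2 fell (median -0.071). The share that fell, 6.67%, was near the 6.79% of all tested genes, and 15.0% of all tested genes were called in either direction. At an unadjusted limma p under 0.05 there were 1 higher and 4 lower, or 16.7%, against 30.0% of all tested genes. The 2 were Pola1, the catalytic subunit gene of DNA polymerase alpha, at -1.16 ± 0.20, and the helicase subunit gene Mcm5 at -0.60 ± 0.16. Pola1 signals were 266, 213 and 171 against 88.4 and 84.8, and Pola1 is X-linked. Its call held at all 16 alternative settings (adjusted p 0.00020 to 0.031). Mcm5 signals were 1428, 1463 and 1397 against 1098 and 803, and its call held at 10 of 16 (adjusted p 0.019 to 0.21). Dropping Folr1+/+ replicate 1 ended it at an adjusted p of 0.057, dropping Folr1+/+ replicate 3 at 0.076, and dropping Folr1-/- replicate 2 at 0.21 with a change of -0.37. Groups did not overlap in 6 of the 30 (20%), against 46.7% of all tested genes.

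Salvage gave 1 call among 9 genes, Uck2, which fell, and a class median of 0.0036. Uck2 encodes a uridine-cytidine kinase, which returns these nucleosides to the nucleotide pool. Its signals were 228, 304 and 291 over the 3 Folr1+/+ arrays and 158 and 159 over the 2 Folr1-/- arrays, with the Folr1-/- arrays close together and below every Folr1+/+ array. The group means were 274 ± 40.7 (SD, n = 3) and 159 ± 1.19 (SD, n = 2). The log2 fold change was -0.72 ± 0.17, with an adjusted p of 0.015 and a 95% confidence interval of -1.10 to -0.35. It was negative at all 16 alternative settings and called at 12 of them (adjusted p 0.0078 to 0.22). Leaving out Folr1+/+ replicate 3 gave -0.68 with an adjusted p of 0.067, leaving out Folr1-/- replicate 1 gave -0.72 with 0.11, and leaving out Folr1-/- replicate 2 gave -0.73 with 0.076, none of which passed. The call was also lost with the mean of its 3 probe sets (-0.31, 0.22). The second probe set of Uck2 was 226, 157 and 138 against 155 and 132, with overlapping groups and a difference of -0.22, and the third was dim, at 2.96 to 12.0 on the arrays.

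The Uck2 window is shown as that of the salvage gene that passed. Its capitals mark a CCAAT box on the opposite strand, 1 base past the annotated start.
Uck2 (chr1:167285078-167285377, strand -): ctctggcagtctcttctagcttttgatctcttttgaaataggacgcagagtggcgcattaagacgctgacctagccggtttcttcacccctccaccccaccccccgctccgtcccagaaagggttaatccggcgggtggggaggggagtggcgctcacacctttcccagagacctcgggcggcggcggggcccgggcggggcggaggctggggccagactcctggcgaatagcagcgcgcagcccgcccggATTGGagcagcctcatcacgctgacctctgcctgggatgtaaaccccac

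Uck1, the paralogue of Uck2 with the same activity, was 126, 140.1 and 138 against 117 and 72.1. Both Folr1-/- arrays were lower, replicate 2 more so, and the fold change of -0.48 ± 0.20 did not pass (adjusted p = 0.14). The purine base enzymes went the other way in sign. Aprt, which recovers adenine, was 773, 683 and 916 against 1184 and 925 (0.41 ± 0.17, adjusted p = 0.13), with both Folr1-/- arrays above the Folr1+/+ range, replicate 2 only barely. Hprt, which recovers hypoxanthine and guanine, was 570.4, 667 and 622 against 674 and 655 (0.10 ± 0.14), with overlapping groups.

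Adk, Dck, Tk1, Tk2 and Ada, the other nucleoside kinase and deaminase genes, had overlapping groups. Adk and Dck, the kinases of adenosine and of deoxycytidine, were at 0.0036 ± 0.18 and 0.13 ± 0.18. Tk1, the cytosolic thymidine kinase that bypasses thymidylate synthase, was 225, 193 and 224 against 191 and 254 (0.044 ± 0.17, interval -0.34 to 0.43). Its mitochondrial counterpart Tk2 (-0.054 ± 0.28) and the adenosine deaminase gene Ada (-0.22 ± 0.26) were the dimmest of the 28 genes, with signals of 16.9 to 50.2 and 27.9 to 59.5, where the added 16 shrinks any difference.

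Steps with and without folate could be set side by side only by description. Gart stood at -0.091, the medians of the other classes ran from -0.34 for PRPP supply to 0.11 for the other purine steps, and every class held genes of both signs except PRPP supply and the folate-dependent step. The SD of a class median between arrays of a group was 0.17 for Gart, 0.24 for PRPP supply, 0.035 for the other purine steps, 0.10 for pyrimidine steps, 0.0802 for the deoxynucleotide class and 0.0821 for salvage. The number of genes per class, 1 to 9, and the absence of Atic here leave the classes without a test.

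More than 1 probe set was available for 16 of the 28 genes, and 8 of their 25 other probe sets had the opposite sign to the one used. These were sets of Adk, Dtymk, Gart, Nme1, Paics, Ppat, Uck2 and Umps. The sets of Ppat ran from -0.34 to 0.39. The sets of Aprt, Cad, Dck, Dhodh, Dut, Prps2, Rrm1 and Rrm2 had the same sign throughout, all 3 of Rrm2 being negative (-0.35 to -0.16).

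**Figure D3:**
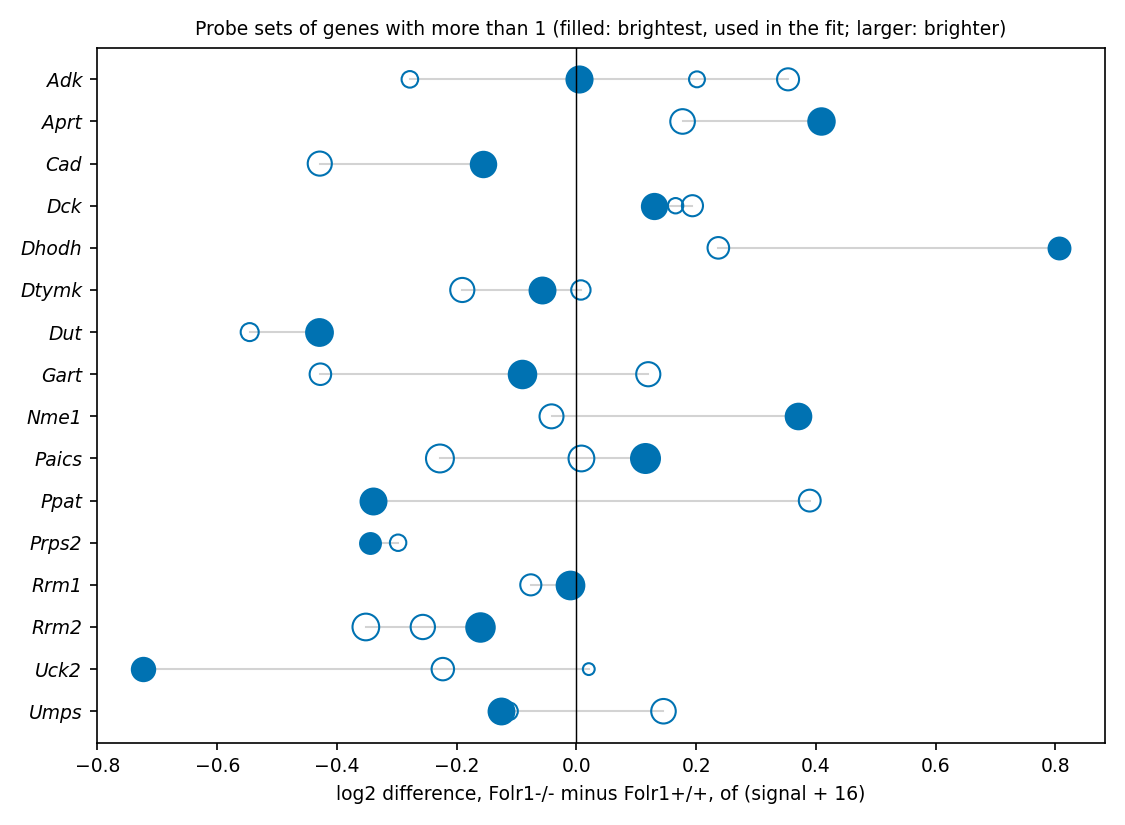
Log2 difference between group means, Folr1-/- minus Folr1+/+, for every probe set of the 16 genes with more than 1. Filled points are the brightest set, used in the fit, and larger points are brighter. Ppat spans 0 from -0.34 to 0.39, and the sets of Uck2 lie between -0.72 and 0.021.

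Neighbouring reactions outside the 28 genes were read from 2 further lists. Of 13 genes of folate cofactor supply and thymidylate synthesis, 7 had a probe set of their own and 5 were tested. None passed limma's threshold (median -0.12), with 1 higher and 0 lower at an unadjusted p under 0.05. That gene was Mthfd1, which encodes the enzyme that makes formyl folate for purine synthesis (1417, 1182 and 1316 against 1809 and 1534, 0.35 ± 0.15, adjusted p = 0.13). Shmt1, Shmt2, Mthfd2 and Fpgs were at -0.12, -0.067, -0.16 and -0.22. These genes and Tyms fall outside the rule for named genes and were picked after their values were seen. The brightest set of Tyms, the thymidylate synthase gene, had signals of 16.4, 9.44 and 17.5 against 0.793 and 10.5 and was too dim to test.

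Among 23 tested genes of other nucleotide reactions, 2 rose and 1 fell (median 0.068). The share called, 13%, was near the 15.0% of all tested genes, as was the 26.1% at an unadjusted limma p under 0.05 to the 30.0% of all tested genes. Ak4, a mitochondrial adenylate kinase gene, had the lower signal in Folr1-/- arrays (777, 632 and 703 against 325 and 406, -0.92 ± 0.16, adjusted p = 0.0028). Ak3, a mitochondrial kinase of the same family, rose (161, 147 and 139 against 232 and 226, 0.57 ± 0.16, adjusted p = 0.034), and so did Nt5c, a nucleotidase gene (46.7, 40.6 and 39.5 against 74.9 and 79.0, 0.68 ± 0.19, adjusted p = 0.032). Ak3 and Ak4 thus moved in opposite directions, with no overlap between groups in either. The name of the Ak4 set used carries the suffix s, and with the mean of its 4 probe sets the Ak4 change was -0.56. The Ak4 call held at 15 of 16 settings (adjusted p 0.00068 to 0.052) and was lost without Folr1-/- replicate 1 (-0.77). The Ak3 call held at 8 of 16 (0.020 to 0.22). It was lost with the mean of probe sets, which gave 0.32, with no filter (0.056) and with quantile normalization (0.051), and without Folr1+/+ replicate 2 or 3 and without Folr1-/- replicate 1 or 2. The Nt5c call held at 10 of 15 (0.018 to 0.16) and was lost with no filter (0.085), without Folr1+/+ replicate 3 and without Folr1-/- replicate 1 or 2.

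**Figure D4:**
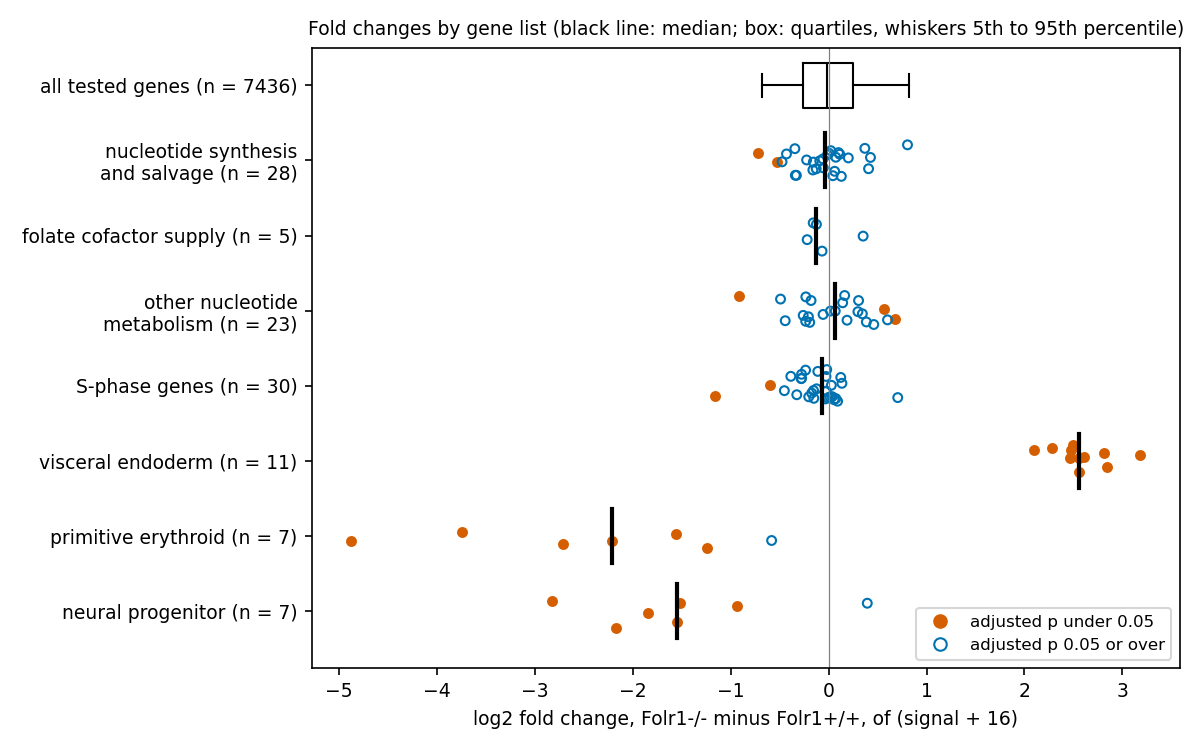
Log2 fold changes, Folr1-/- minus Folr1+/+, of all 7436 tested genes (box of quartiles, whiskers at the 5th and 95th percentiles) and of each tested gene in 7 lists, with the list median as a black line and called genes filled. The nucleotide genes (median -0.032) and S-phase genes (median -0.071) centre near 0, while the visceral endoderm genes lie from 2.10 to 3.18 and the primitive erythroid genes from -4.87 to -0.58.

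Promoter windows were available for 27 of the 28 genes, 34 windows in all, and were searched on both strands for CACGTG (the E-box bound by Myc-type factors), TTTNGCGC (an E2F-type site) and CCAAT. The E-box was found in 4 windows of 3 genes, Dtymk, Nme1 and Paics. That is 11.8% of windows against 7.15% of all 32851 windows, but 11.1% of the genes against 12.7% of the 6068 tested genes with a window. CCAAT was found in 11 windows of 10 genes, among them Gart, Rrm1, Rrm2, Prps1 and Uck2 (32.4% of windows against 37.4%, and 37% of genes against 43.3%). The E2F-type letters were in 0 of the 34 windows, in 1.38% of all windows and in a window of 3.26% of tested genes. A match describes the sequence only, and the 2 genes that passed held a CCAAT box in one case and none of the 3 motifs in the other.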

How the data were processed

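The authors deposited MAS5 signal intensities per probe set, per the submitters' processing notes, which name no version, after 2 rounds of RNA amplification per the labels' protocols. Their scaling set the trimmed mean of each array to 150.06 or 150.07 and was kept. Probe sets were named from the platform annotation, 20380 with 1 symbol, 691 with several and 1555 unlisted, and promoters came from RefSeq. Of a gene's probe sets the one brightest on average, as log2(signal + 16), was used, genes under the 40th percentile were left out, and limma 3.58.1 in R 4.3.3 (lmFit, eBayes with an intensity trend) tested Folr1-/- minus Folr1+/+ without covariates, with Benjamini-Hochberg adjustment over 7436 genes, a threshold of 0.05 and 3 residual degrees of freedom. Fold changes on this scale understate the change of dim genes. The number of arrays limits the precision. Detection calls were not used. The code was tested on simulated data. The genes and lists were chosen with earlier results of these data known, and the text names all 28 measured genes and up to 4 called genes per direction of each pathway list.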

Additional observations from a re-analysis of the deposited data

How the results depend on the processing

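The count of lower nucleotide genes was 2 in the fit described and 1 with no filter, with the mean of probe sets, with no intensity trend and with the replicate block, and it ranged from 0 to 2 when each array was left out. It was 2 when genes of both sex chromosomes were dropped, an alternative that was chosen after seeing the data. Ctps and Uck2 lie on chromosomes 4 and 1, so that this setting hardly touched their fit and does not address the sex of the embryos. The count of higher genes was 0 except with the replicate block, where it was 1 (Dhodh, 1.01, limma adjusted p = 0.014, range over the settings 0.014 to 0.37), while the calls of Ctps (-0.51, adjusted p = 0.086), Ak3 (0.53, 0.13) and Nt5c (0.64, 0.12) were lost there. The labels do not say whether equal replicate numbers share a litter, batch or day. Deviations of same-numbered arrays correlated at 0.019 and -0.056. With only 2 Folr1-/- arrays, their deviations mirror each other, so these correlations cannot show whether the numbers are paired. Folr1+/+ replicate 3, which has no partner, drops out of a blocked fold change. All genes called numbered 747 with no filter, 899 with the block, and 369 to 1007 with an array left out. The median of the other purine steps was 0.15 with quantile normalization, 0.21 with median centring, 0.062 with the mean of probe sets and 0.17 with array weights, and 0.082 to 0.18 with an array left out. Median centring moved the deoxynucleotide median to 0.0801 and the salvage median to 0.095, and leaving out arrays gave -0.13 to 0.040 and -0.091 to 0.081. The number of negative fold changes among the 28 was 15. It ran from 11 with median centring to 18 with the Actb ratio as a covariate. That ratio sets the 3′ Actb control probe set against the 5′ one. It was 21.1, 39.5 and 29.1 on the Folr1+/+ arrays and 30.5 and 22.8 on the Folr1-/- arrays. Signal of Actb thus lay towards the 3′ end on every array, and the bearing of this on single probe sets was not tested. Of 540 values of single named genes under the alternatives, 508 kept sign and call or had none to lose, 30 lost a call, 2 gained one and 0 called genes turned in sign. Most of the 508 were values of genes without a call in the main fit. All 30 losses fell on the genes called there, which held their calls at 8 of 16 settings (Ak3) to 16 of 16 (Pola1). The cause of these shifts was not tested. Dim signals limit Tk2, Ada and Tyms most.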

Other observations

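Outside the named genes, 3 genes of the list of other nucleotide reactions came close to the threshold without passing it, and were picked after their values were seen. Ctps2, the X-linked paralogue of Ctps, was 84.0, 60.8 and 92.1 against 142 and 113, with a fold change of 0.60 ± 0.20 (limma adjusted p = 0.069), opposite in sign to Ctps. Prpsap1, which encodes a protein associated with PRPP synthetase, was 1031, 1143 and 1180.4 against 904 and 738 (-0.44 ± 0.15, adjusted p = 0.069), and the nucleotidase gene Nt5c2 was 145, 136 and 146 against 102 and 91.3 (-0.49 ± 0.17, adjusted p = 0.071). In each of the 3 the groups did not overlap, which held for 46.7% of all tested genes.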
